A study of Homo sapiens with 9 samples.

Results

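The 10 genes described here encode enzymes of sphingolipid synthesis and the subunits of serine palmitoyltransferase, the enzyme that opens the pathway. They were taken by gene symbol (SPTLC1, SPTLC2, SPTLC3, SPTSSA, SPTSSB, CERS2, CERS6, DEGS1, UGCG and SGPL1), and all 10 were found among the 17492 genes of the deposited expression table. SPTSSB was selected on measured values, since its rise with quercetin drew attention to the family; its levels are therefore given as a description with no test, and calls are counted over the other 9 genes. RNA was sequenced from HCCLM3, a highly metastatic human hepatocellular carcinoma cell line labelled as wild type, in 3 groups of 3 libraries. The control group received DMSO, the solvent, and the treated groups received quercetin, a plant flavonol, at 50 µM or 100 µM. The labels differ between groups in nothing else, HCCLM3 is a single line, and how long the cells were treated is not stated in the sources used here. Nothing in the labels says that replicates came from separate cultures, so each p-value reflects only how far these libraries differ, which may be technical.

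Serine palmitoyltransferase joins serine with a fatty acyl-CoA on the endoplasmic reticulum. Its core is a dimer of SPTLC1 with SPTLC2 or SPTLC3, to which a small subunit, SPTSSA or SPTSSB, binds and raises activity; the choice of large and small subunits shifts the chain length of the bases made. The product is reduced, acylated by ceramide synthases such as CERS2 (very long acyl chains) and CERS6 (mainly palmitoyl chains), and desaturated by DEGS1 to ceramide. UGCG adds glucose to ceramide, and SGPL1 cleaves sphingosine 1-phosphate, the only exit from the pathway. ORMDL proteins hold the first enzyme in check when ceramide is plentiful.

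Library totals ran from 20061031 to 21599661 estimated counts, and all 10 genes passed the filter on low counts. Control replicate 1 and 100 µM replicate 3 stood apart from their groups. The chi-square per gene was 27.6 and 27.4 between control replicate 1 and the other controls against 3.56 between those, and 83.9 and 86.1 between 100 µM replicate 3 and its partners against 5.04 between them; the 50 µM pairs lay between 4.24 and 4.75. The log2 fold changes of the 10 genes that changed call, or moved most, without these libraries are given beside the full values. Of 13 measured hepatocyte markers, 10 had a mean of at least 1 TPM (a level per transcript length, scaled to the same total in every library). The hepatocyte markers summed to 5869 to 6813 TPM in controls, 5226 to 5369 at 50 µM and 4091 to 6134 at 100 µM. KRT8 and KRT18 made up most of that sum, with means of 4198, 3700 and 3769 TPM and of 2070, 1478 and 1465 TPM in the same order. The transcription factor HNF4A averaged 18.9, 10.8 and 15.1 TPM, APOB 1.31, 0.253 and 0.343, and ALB, which encodes albumin, 1.19, 8.12 and 9.41. APOA1 was at 0.283 TPM in controls. Summed markers of other cells also had different ranges between groups: the 7 leukocyte markers summed to 184.9 to 256.9 TPM in controls, 164 to 180.7 at 50 µM and 253.9 to 377.5 at 100 µM. CD68 alone averaged 226.9 TPM in controls, and PTPRC, the defining leukocyte marker, 0.543 TPM. The 5 measured endothelial markers summed to 19.9 to 22.4, 10.3 to 12.2 and 10.97 to 14.2 TPM in the same order, and the 7 fibroblast markers, led by LUM, to 57.8 to 87.2, 66.2 to 73.6 and 63.7 to 109.6 TPM. The 5 cholangiocyte markers summed to 527.8 to 586.4, 513.5 to 545.1 and 526.4 to 652.1 TPM. No measured marker was at 0 in all libraries. The hepatocyte marker GPC3 and the endothelial marker CLDN5 were listed but not among the deposited genes. The part of these markers in the results was not tested. In bulk RNA, fewer cells of a type and less RNA per cell cannot be told apart.

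SPTSSB transcripts were several times higher in quercetin-treated than in control libraries, and SPTSSA transcripts rose moderately at both concentrations. None of the other 8 genes passed the test in any comparison. SPTSSB stood at 31.9, 12.4 and 11.05 TPM in control replicates 1, 2 and 3. It stood at 98.1, 89.96 and 103.4 TPM at 50 µM, and at 52.4, 55.02 and 72.7 TPM at 100 µM. The 3 groups did not overlap: every 50 µM library lay above every 100 µM library, and every 100 µM library above every control, with control replicate 1 the highest control and 100 µM replicate 3 the highest at its concentration. The fitted log2 fold change of SPTSSB was 2.42 ± 0.34 (SE, n = 3 per group) at 50 µM, a 5.35-fold difference, and 1.75 ± 0.33 at 100 µM, a 3.36-fold difference. Between the concentrations it was -0.67 ± 0.32. Without control replicate 1 these values became 3.02 (8.11-fold), 2.35 (5.10-fold) and -0.67. With 100 µM replicate 3 also left out they were 3.01, 2.13 and -0.88. Over all 17 alternative settings they ran from 2.19 to 3.02, from 1.52 to 2.35 and from -0.89 to -0.56.

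**Figure D1:**
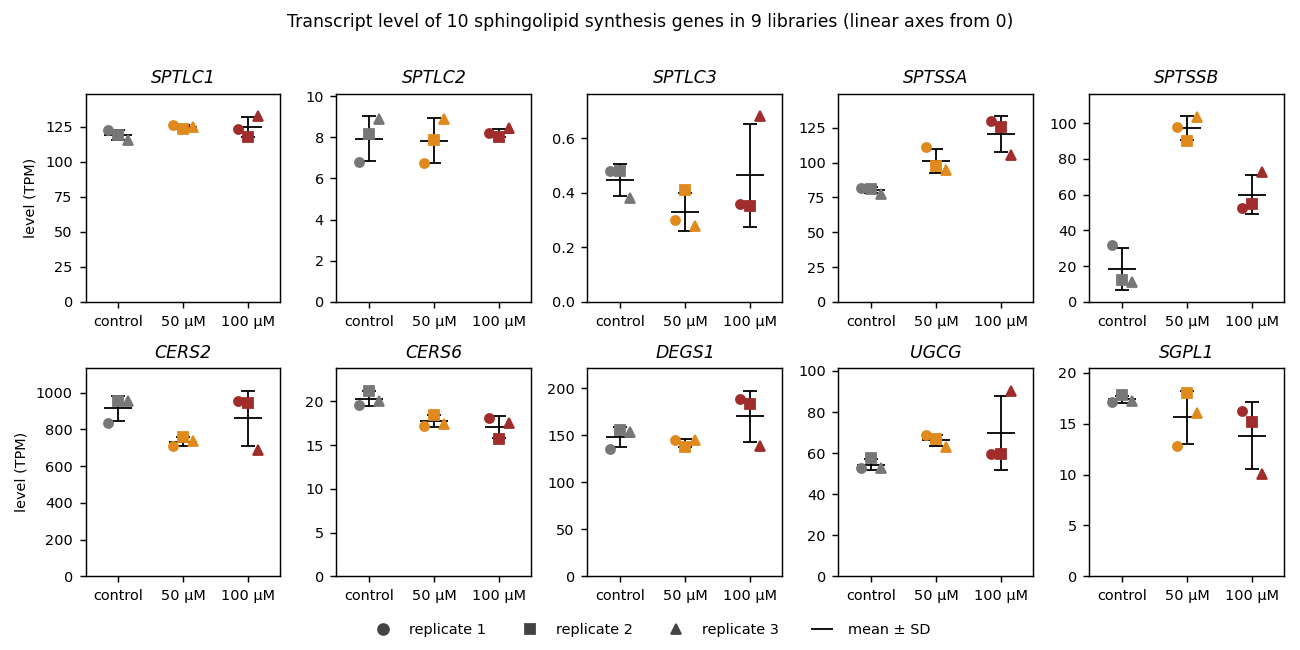
Level of each of the 10 genes in TPM (vertical axes, linear and starting at 0) in control, 50 µM and 100 µM libraries; symbols mark replicates 1 to 3 and bars the mean ± SD (n = 3). SPTSSB lies between 11.05 and 31.9 TPM in controls and between 52.4 and 103.4 TPM in all treated libraries, while SPTLC1 stays between 115.4 and 132.6 TPM throughout.

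SPTSSA, the other small subunit, stood at 82.0, 80.9 and 77.8 TPM in controls. It stood at 110.9, 97.2 and 94.9 TPM at 50 µM and at 129.9, 125.2 and 105.5 TPM at 100 µM. All 6 treated libraries lay above all 3 controls. In TPM the lowest 100 µM library, replicate 3, lay below the highest 50 µM library. In CPM (counts scaled to library size, not to length) it lay above that library, at 143.6 against 141.6, so the concentrations did not overlap on that scale. By edgeR's quasi-likelihood test SPTSSA rose by a log2 fold change of 0.39 ± 0.08 at 50 µM (1.31-fold, adjusted p = 0.0205) and by 0.65 ± 0.08 at 100 µM (1.57-fold, adjusted p = 0.00128). The difference between the concentrations was 0.26 ± 0.08 (adjusted p = 0.106). The call at 100 µM held under all 17 alternatives, with values from 0.57 to 0.70. The call at 50 µM was lost without control replicate 2 (0.40, adjusted p = 0.0976), control replicate 3 (0.39, adjusted p = 0.0950), or 50 µM replicate 1 (0.32, adjusted p = 0.0886), 2 (0.43, adjusted p = 0.0584) or 3 (0.42, adjusted p = 0.0823). The difference between concentrations became 0.30 and passed the test without 100 µM replicate 3 (adjusted p = 0.0160). The authors' deposited table lists SPTSSA with a log2 fold change of 0.39 (q = 0.000186) at 50 µM and 0.65 (q = 9.82e-09) at 100 µM. In GENCODE v29 SPTSSA lies inside the EGLN3 locus on the same strand, and EGLN3, a HIF prolyl hydroxylase, had 0 to 3 counts per control library, 4 to 8 at 50 µM and 7 to 38 at 100 µM.

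**Figure D2:**
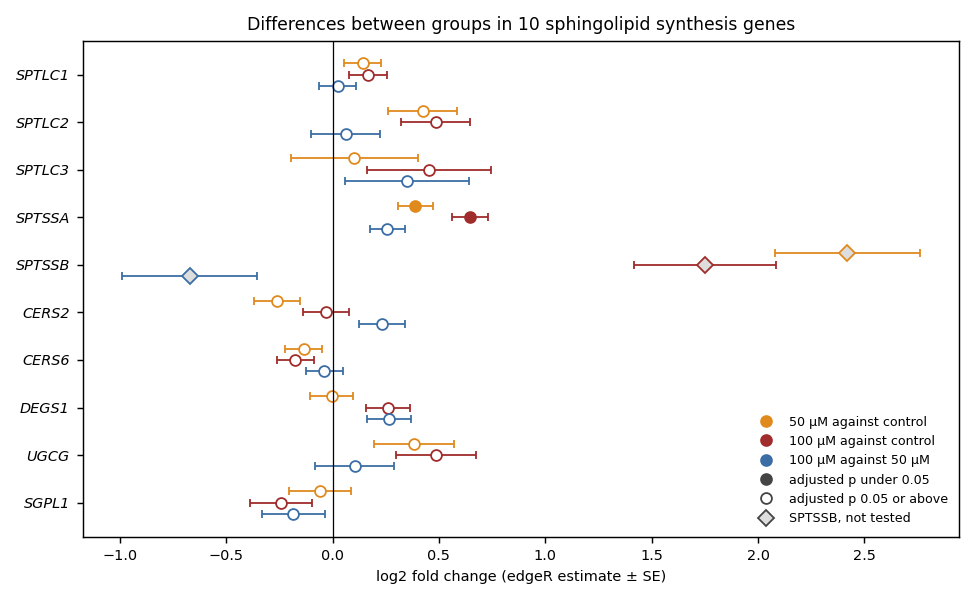
Log2 fold change (horizontal axis, edgeR estimate ± SE, n = 3 per group) of the 10 genes for 50 µM against control (orange), 100 µM against control (red) and 100 µM against 50 µM (blue); filled circles passed an adjusted p of 0.05, open circles did not, and grey diamonds show SPTSSB, which was not tested. Only the SPTSSA circles for each concentration against control are filled.

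Taken as a pool, the small subunit transcripts held the largest share of SPTSSB at 50 µM. SPTSSB was 28.0%, 13.3% and 12.4% of the summed SPTSSA and SPTSSB transcripts (TPM) in control replicates 1 to 3. Its share was 46.9%, 48.1% and 52.1% at 50 µM and 28.7%, 30.5% and 40.8% at 100 µM. The lowest share at 100 µM was thus close to that of control replicate 1, while the 50 µM libraries stood apart from both other groups. The mean shares were 17.9% ± 8.75 (SD, n = 3), 49.0% ± 2.74 and 33.4% ± 6.502 in controls, at 50 µM and at 100 µM. The summed level of both small subunits was 98.7 ± 13.4 TPM in controls, 198.1 ± 10.9 at 50 µM and 180.2 ± 2.10 at 100 µM. These shares hold SPTSSB, which was selected on its rise, and were not tested.

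**Figure D3:**
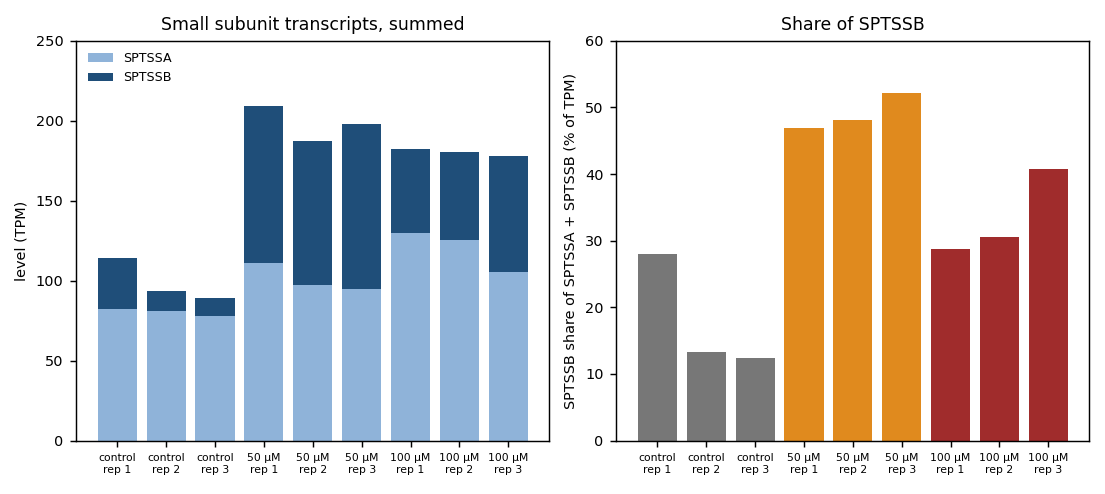
Left, SPTSSA and SPTSSB levels stacked (TPM) in each of the 9 libraries; right, the share of SPTSSB in their sum (% of TPM), with controls in grey, 50 µM in orange and 100 µM in red. The summed level is 88.8 to 113.9 TPM in controls and 178.2 to 208.9 TPM in treated libraries, and SPTSSB holds 46.9% to 52.1% of it at 50 µM.

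With all 9 libraries in the fit, the large subunits did not pass the test. SPTLC1, the subunit common to all forms of the enzyme, stood at 122.7, 118.9 and 115.4 TPM in controls, at 126.7, 123.7 and 124.8 at 50 µM, and at 123.6, 118.1 and 132.6 at 100 µM. Its log2 fold changes were 0.14 ± 0.09 (adjusted p = 0.294), 0.16 ± 0.09 (adjusted p = 0.208) and 0.02 ± 0.09 (adjusted p = 0.909) for 50 µM against control, 100 µM against control and 100 µM against 50 µM. The 50 µM libraries all lay above the controls and the 100 µM libraries overlapped with controls in TPM. In CPM all 100 µM libraries lay above all controls, at 151.4 to 185.2 against 142.0 to 149.0. With 100 µM replicate 3 left out, SPTLC1 at 100 µM against control was at 0.07 (adjusted p = 0.426) and at 50 µM was 0.15 (adjusted p = 0.0559). With control replicate 1 left out as well, SPTLC1 passed at 50 µM (0.16, adjusted p = 0.0146) and was 0.09 at 100 µM (adjusted p = 0.227). SPTLC1 has 5 processed pseudogenes in GENCODE v29 (SPTLC1P1 to SPTLC1P5), with which reads could be shared.

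SPTLC2, the usual catalytic partner, gave different pictures in counts and in TPM. Estimated counts were 401, 406 and 394 in controls, 503, 550 and 589 at 50 µM and 480, 490 and 710 at 100 µM, so that every treated library lay above every control. In TPM, which divides by transcript length, the libraries overlapped: 6.78, 8.14 and 8.91 in controls, 6.73, 7.86 and 8.91 at 50 µM, and 8.19, 8.01 and 8.43 at 100 µM. The log2 fold change from counts was 0.42 ± 0.16 at 50 µM (adjusted p = 0.110) and 0.49 ± 0.16 at 100 µM (adjusted p = 0.0598); from log2(TPM + 0.5) it was -0.02 and 0.05. The mean transcript length implied by the deposited counts and FPKM of SPTLC2 ran from 4707 bases in control replicate 3 to 7993 in 100 µM replicate 3, a ratio of 1.698, and only 0.0864% of 10418 genes compared had a larger ratio. The count-based call depended on single libraries: it passed at 50 µM without 100 µM replicate 3 (0.43, adjusted p = 0.00266), and at 100 µM without 100 µM replicate 1 (0.59, adjusted p = 0.0403) or 2 (0.59, adjusted p = 0.0472). Leaving out 100 µM replicate 3, the library with the most SPTLC2 counts, lowered the value at 100 µM to 0.25 (adjusted p = 0.0527) and turned that against 50 µM negative (-0.18, adjusted p = 0.154). With both libraries that stood apart left out, SPTLC2 passed at 50 µM (0.39, adjusted p = 0.000232) and at 100 µM with a smaller value (0.22, adjusted p = 0.0474). It also passed at 50 µM when only those 2 groups were fitted (0.42, adjusted p = 0.00697) and at 100 µM by DESeq2 (0.49, adjusted p = 0.0289). In the authors' deposited table SPTLC2 had q = 0.00257 at 50 µM and q = 0.125 at 100 µM.

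**Figure D4:**
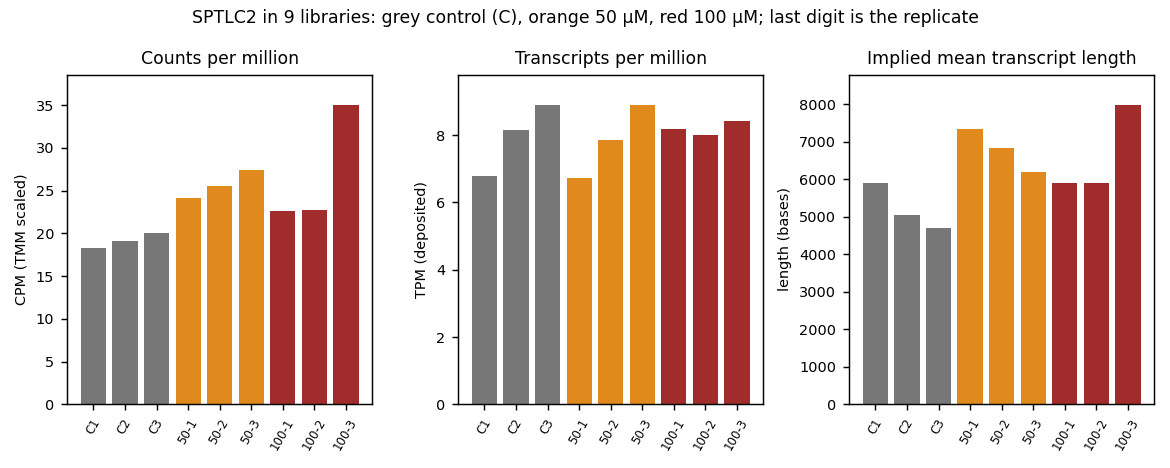
SPTLC2 in 9 libraries as CPM (counts scaled to library size, not to length), as deposited TPM and as the mean transcript length in bases implied by counts and FPKM (bars from 0; grey control, orange 50 µM, red 100 µM). CPM runs from 18.3 in control replicate 1 to 35.1 in 100 µM replicate 3, whereas TPM lies between 6.73 and 8.91 in all groups.

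SPTLC3, the alternative catalytic subunit, was close to the limit of detection, with 13.2 to 17.3 counts per control library, 14.9 to 16.5 at 50 µM and 15.0 to 23.9 at 100 µM. Its levels were 0.38 to 0.48, 0.28 to 0.41 and 0.35 to 0.68 TPM, and the groups overlapped. It made up 5.42% ± 1.27 (SD, n = 3), 4.09% ± 0.97 and 5.29% ± 1.89 of the summed SPTLC2 and SPTLC3 transcripts. The implied mean transcript length of SPTLC3 ran from 2705 to 5612 bases, a ratio of 2.074. Its TPM and this share therefore depend on that length as well as on counts. No difference in SPTLC3 was detectable at this depth (log2 fold change 0.10 ± 0.30 and 0.45 ± 0.29, adjusted p = 0.834 and 0.289); the value at 100 µM was 0.27 without 100 µM replicate 3 (adjusted p = 0.583). SPTLC1 exceeded the sum of its partners 14.4-fold in controls, 15.5-fold at 50 µM and 14.4-fold at 100 µM in TPM, with SDs of 2.29, 2.28 and 0.222. This ratio rests mostly on the TPM of SPTLC2, whose implied length differed between libraries, and it was not taken from counts.

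Of the 9 genes other than SPTSSB, 1 was higher and 0 were lower at 50 µM by edgeR, against 5.28% of 12832 tested genes higher and 6.31% lower. At an unadjusted p under 0.05 the counts were 2 higher (SPTSSA and SPTLC2) and 1 lower (CERS2). The share of all genes under that unadjusted threshold was not taken in any comparison, so the unadjusted counts have no background beside them. DESeq2 also gave 1 higher and 0 lower (9.41% and 10.6% of all genes), and limma on log2(TPM + 0.5) gave 0 and 0 (3.52% and 5.56%). The 50 µM and control libraries did not overlap in CPM for 6 of the 9 genes, and for 49.0% of all genes tested. At 100 µM 1 was higher and 0 were lower, against 10.7% and 10.3% of all genes. Unadjusted, 4 were higher and 0 lower at 100 µM. DESeq2 gave 3 higher (SPTSSA, SPTLC2 and UGCG) and 0 lower at 100 µM, against 13.4% and 12.9% of all genes. Groups did not overlap for 5 of 9 genes there, and for 35.9% of all genes. Between the concentrations 0 were higher and 0 lower, against 2.25% and 1.89% of all genes. Unadjusted, 2 were higher (SPTSSA and DEGS1) and 0 lower in this comparison. DESeq2 gave 1 higher (SPTSSA) and 0 lower, against 5.53% and 5.24% of all genes. Groups did not overlap for 2 of 9, and for 27.7% of all genes. The median log2 fold change of the 9 genes was 0.10, 0.26 and 0.10 in the 3 comparisons, beside 0.00329, 0.000873 and 0.0121 over all genes tested. The comparisons against control share the control libraries. The counts moved with single libraries. At 50 µM, 0 were higher without control replicate 2 or 3 or any 50 µM library, while the share of all genes called higher lay between 0.362% and 0.732% in those fits. Without 100 µM replicate 3, 3 of the 9 were higher and 1 lower at 50 µM in a fit that called 18.4% of the tested genes higher and 18.2% lower. At 100 µM, 3 were higher without 100 µM replicate 1 (9.50% of all genes), 2 without replicate 2 (8.43%), and 2 higher with 1 lower without replicate 3 (15.2% and 14.6%). Between the concentrations 3 were higher and 1 lower without 100 µM replicate 3, against 14.1% and 13.4% of all genes.

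Ceramide synthase 2, which makes ceramides with very long acyl chains, was the most abundant transcript of the family. CERS2 stood at 836.8, 955.1 and 953.8 TPM in controls, at 706.6, 758.4 and 733.9 at 50 µM, and at 952.2, 942.0 and 687.3 at 100 µM. All 50 µM libraries lay below all controls, whereas 100 µM replicates 1 and 2 lay among the controls and, in TPM, replicate 3 below the 50 µM libraries. In CPM replicate 3 lay among the 50 µM libraries, at 805.1 against 778.7 to 819.8. The log2 fold change at 50 µM was -0.26 ± 0.11 (adjusted p = 0.131), at 100 µM -0.03 ± 0.11 (adjusted p = 0.856), and between the concentrations 0.23 ± 0.11 (adjusted p = 0.250). Without 100 µM replicate 3, CERS2 passed the test at 50 µM against control (-0.25, adjusted p = 0.0179) and for 100 µM against 50 µM (0.33, adjusted p = 0.0110). At 100 µM against control the CERS2 value then changed sign, to 0.08 (adjusted p = 0.481). The authors' deposited table gives it q = 0.00991 at 50 µM. CERS2 overlaps SETDB1 on the opposite strand over 4162 bases in GENCODE v29, and SETDB1 stood at 44.6 to 48.1, 42.0 to 47.6 and 37.6 to 40.1 TPM in the 3 groups.

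CERS6, a ceramide synthase with a preference for palmitoyl chains, stood at 19.5, 21.2 and 20.05 TPM in controls, 17.2, 18.5 and 17.5 at 50 µM, and 18.1, 15.6 and 17.5 at 100 µM. Every treated library lay below every control in TPM. In CPM 100 µM replicate 3, at 61.5, lay above control replicate 1, at 60.1. The differences were small: log2 fold changes were -0.14 ± 0.09 (adjusted p = 0.307) and -0.17 ± 0.09 (adjusted p = 0.181). The latter became -0.23 without 100 µM replicate 3 (adjusted p = 0.0447). With both libraries that stood apart left out, CERS6 passed at 50 µM (-0.18, adjusted p = 0.0225) and at 100 µM (-0.27, adjusted p = 0.00248). An antisense gene, CERS6-AS1, overlaps it, and whether counting used strand is not stated in the sources used here. Reads from bases that these partners share, as from those of CERS2 and SETDB1, may therefore not be told apart. The overlaps are of whole gene spans, and how much of them is exon was not taken.

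DEGS1, the desaturase that completes ceramide, stood at 135.6, 155.4 and 153.4 TPM in controls and 144.4, 137.03 and 144.6 at 50 µM. At 100 µM it stood at 188.5, 182.8 and 138.8 TPM, so replicates 1 and 2 lay above all other libraries and replicate 3 among the controls. In CPM all 100 µM libraries lay above all 50 µM libraries, with replicate 3 at 143.0 against at most 142.0. The log2 fold change at 100 µM was 0.26 ± 0.10 (adjusted p = 0.0974), and against 50 µM 0.27 ± 0.10 (adjusted p = 0.166). Both became 0.36 and passed the test without 100 µM replicate 3 (adjusted p = 0.00764 and 0.0104). Without control replicate 1 the value against control was 0.20 (adjusted p = 0.198). With both of these libraries left out it was 0.29 (adjusted p = 0.000383). At 50 µM against control the log2 fold change was -0.00441 ± 0.10 (adjusted p = 0.980).

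UGCG, which diverts ceramide into glycosphingolipids, stood at 52.96, 57.5 and 52.5 TPM in controls, 68.6, 66.9 and 63.2 at 50 µM, and 59.4, 59.7 and 90.4 at 100 µM. All treated libraries lay above all controls, and 100 µM replicate 3 was the highest of all 9. The log2 fold change was 0.38 ± 0.19 at 50 µM (adjusted p = 0.187) and 0.49 ± 0.19 at 100 µM (adjusted p = 0.0919). Without 100 µM replicate 3 UGCG passed the test at 50 µM (0.39, adjusted p = 0.00122), and the difference of 100 µM against 50 µM turned from 0.10 (adjusted p = 0.795) to -0.21 (adjusted p = 0.0405). Without 100 µM replicate 1 the comparison of 100 µM with control gave 0.63 (adjusted p = 0.0458), whereas without replicate 3 it gave 0.18 (adjusted p = 0.0619). With control replicate 1 also left out it was 0.17 (adjusted p = 0.0329). In the authors' deposited table UGCG had q = 3.07e-05 at 50 µM and q = 0.172 at 100 µM.

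SGPL1, which breaks sphingosine 1-phosphate down, stood at 17.2, 17.8 and 17.2 TPM in controls, 12.8, 18.03 and 16.1 at 50 µM and 16.3, 15.2 and 10.06 at 100 µM. The 50 µM libraries straddled the controls, and 100 µM replicate 3 was the lowest library. Log2 fold changes were -0.06 ± 0.15 (adjusted p = 0.800), -0.24 ± 0.15 (adjusted p = 0.256) and -0.18 ± 0.15 (adjusted p = 0.508), with no call under any of the 17 alternatives. The values depended on single libraries. Without 100 µM replicate 3 SGPL1 was at -0.09 (adjusted p = 0.556) at 100 µM against control and -0.04 (adjusted p = 0.803) against 50 µM. Without 50 µM replicate 1 the value at 50 µM changed sign, to 0.06.

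The order of the transcript levels, in TPM, was mostly the same in the 3 groups. In controls it ran CERS2 (mean 915.2), DEGS1 (148.1), SPTLC1 (119.0), SPTSSA (80.2), UGCG (54.3), CERS6 (20.3), SPTSSB (18.4), SGPL1 (17.4), SPTLC2 (7.94) and SPTLC3 (0.447). Neighbouring levels did not overlap between libraries except those of CERS6, SPTSSB and SGPL1. At 50 µM SPTSSB stood above UGCG and CERS6, with a mean of 97.1 ± 6.75 TPM (SD, n = 3) that overlapped in range with SPTSSA at 100.99 ± 8.65. At 100 µM SPTSSB stood at 60.04 ± 11.02 TPM and overlapped with UGCG, at 69.8 ± 17.8. SPTLC1 and SPTSSA also overlapped there, at 124.8 ± 7.30 and 120.2 ± 12.96 TPM.

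Across the 9 libraries the log2 CPM of SPTSSB had a Pearson correlation r of 0.73 with both SPTLC1 and SPTLC2, 0.69 with SPTSSA, 0.67 with UGCG, 0.28 with SPTLC3, 0.00 (0.00268) with DEGS1, -0.39 with SGPL1, -0.61 with CERS6 and -0.73 with CERS2, as a description over libraries that share the treatment groups. The genes most like SPTSSB by this measure, of 10469 compared, were H3-3B (a histone H3.3 gene, r = 0.995), SEMA4C (a semaphorin, 0.993), TMEM128 (a membrane protein, 0.990), COMMD2 (0.989) and LPAR6 (a lysophosphatidic acid receptor, 0.987). In CPM, LPAR6 averaged 5.51 ± 3.22 (SD, n = 3) in controls, 17.7 ± 0.93 at 50 µM and 13.8 ± 4.48 at 100 µM. SEMA4C averaged 15.4 ± 3.86, 29.8 ± 1.52 and 25.2 ± 1.95. Both therefore had the same order of groups as SPTSSB with smaller differences, and they were picked for that likeness.

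RefSeq (GRCh38.p14) gave promoter windows for 8 of the 10 genes, not for CERS2 and SPTLC3, and 9 windows in all, since DEGS1 has an additional start. The 250 bases before each start were searched on both strands for ACGTG, the core bound by hypoxia-inducible factor, and GCGTG, the core bound by the aryl hydrocarbon receptor. They differ in the first base, so no position matches both on the same strand. ACGTG occurred in 1 of the 9 windows, that of SPTSSA, and in 18.5% of 35116 windows of the same length. GCGTG occurred in 7 of 9 and in 32.2% of all. The windows of SPTSSB and SPTLC1 held neither. The SPTSSA window had a GC content of 82.0%, that of SPTSSB 54.8%, that of SPTLC1 56.4%, and the median window 58.0%. All windows with GCGTG, both DEGS1 windows among them, had a GC content of 68.4% to 82.0%. The 32.2% covers windows of every GC content, so it is not matched to these. Printed here are the stretches outside annotated GENCODE v29 exons for SPTSSA, the gene that passed the test at both concentrations (chr14:34462357-34462490, minus strand), and for SPTLC1, its large-subunit partner that did not (chr9:92115414-92115663, minus strand), with matches in capitals. The third sequence is the ACGTG match of SPTSSA, 24 bases before the RefSeq start and within a GENCODE exon (chr14:34462248-34462276, minus strand). The SPTSSB window lies wholly in annotated exons of longer transcripts and is not printed.
SPTSSA: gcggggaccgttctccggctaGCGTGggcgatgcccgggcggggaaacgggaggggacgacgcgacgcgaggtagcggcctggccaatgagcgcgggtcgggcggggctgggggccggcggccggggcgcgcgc
SPTLC1: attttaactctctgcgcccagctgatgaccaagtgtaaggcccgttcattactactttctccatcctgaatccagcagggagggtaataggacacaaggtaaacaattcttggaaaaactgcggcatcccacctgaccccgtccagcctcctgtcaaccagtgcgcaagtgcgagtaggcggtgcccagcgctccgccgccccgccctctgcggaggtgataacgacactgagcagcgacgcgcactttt
SPTSSA match: gggggctttaggACGTGagcgggcggccg
A match is a description of letters in a window, and no binding was measured.

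The rest of the pathway was read from a list of 63 further sphingolipid genes, of which 62 were in the table and 53 passed the filter. At 50 µM 2 of the 53 were higher and 6 lower (5.28% and 6.31% of all genes), at 100 µM 5 were higher and 2 lower (10.7% and 10.3%), and between the concentrations 3 were higher and 1 lower (2.25% and 1.89%). The median log2 fold change of the list was -0.12, 0.02 and 0.14. Without control replicate 2, no gene of the list was called in either direction at 50 µM or 100 µM. The shares of all genes in those fits were 0.378% higher and 0.424% lower at 50 µM, and 4.79% and 3.82% at 100 µM. Leaving out 100 µM replicate 3, 6 were higher and 15 lower at 50 µM (18.4% and 18.2% of all genes), 10 and 5 at 100 µM (15.2% and 14.6%), and 15 and 4 between the concentrations (14.1% and 13.4%).

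Among the regulators of serine palmitoyltransferase, ORMDL3 was the 1 of 4 called, at 100 µM (10.7% of all genes were higher). It stood at 55.5, 36.8 and 36.8 TPM in controls, 55.5, 52.98 and 54.3 at 50 µM, and 62.8, 65.95 and 58.1 at 100 µM. Control replicate 1 lay at the level of the 50 µM libraries, and all 100 µM libraries lay above the rest. The log2 fold change at 100 µM was 0.61 ± 0.14 (adjusted p = 0.0146), lost without control replicate 2 (0.52, adjusted p = 0.0603) or 3 (0.54, adjusted p = 0.0650). At 50 µM it was 0.41 ± 0.14 (adjusted p = 0.0810), and it passed without control replicate 1 (0.61, adjusted p = 0.00284) or 100 µM replicate 3 (0.41, adjusted p = 0.0362). ORMDL1 was at 32.3 ± 0.88, 32.1 ± 0.36 and 29.5 ± 1.51 TPM (SD, n = 3) and ORMDL2 at 70.6 ± 1.98, 71.8 ± 2.63 and 74.4 ± 16.8 TPM. Neither was called; without 100 µM replicate 3 ORMDL2 passed at 100 µM against control (0.28, adjusted p = 0.00708) and against 50 µM (0.19, adjusted p = 0.0441).

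Of 5 genes for the use of ceramide in sphingomyelin and related lipids and for its transfer, 2 were lower at 50 µM (6.31% of all genes were lower) and 0 higher. SAMD8, a ceramide phosphoethanolamine synthase, fell from 10.9 ± 0.62 TPM (SD, n = 3) to 7.18 ± 0.48 at 50 µM (log2 fold change -0.54 ± 0.08, adjusted p = 0.00806) and was at 9.997 ± 0.75 at 100 µM, higher than at 50 µM by 0.48 ± 0.08 (adjusted p = 0.0160). SGMS1, a sphingomyelin synthase, was at 25.5 ± 2.34 TPM in controls, 18.9 ± 0.44 at 50 µM and 18.7 ± 1.23 at 100 µM. It was lower at both concentrations (-0.37 ± 0.09, adjusted p = 0.0311, and -0.38 ± 0.09, adjusted p = 0.0186). In every treated library SGMS1 lay below every control. The SAMD8 call at 50 µM was lost without control replicate 2 (-0.49) or 50 µM replicate 3 (-0.50), and that between concentrations without 50 µM replicate 1, 2 or 3 or 100 µM replicate 1 (0.45 to 0.50). The SGMS1 call at 50 µM was lost without control replicate 2 or 3 or any 50 µM library (-0.38 to -0.30), and that at 100 µM without control replicate 2 (-0.36) or 3 (-0.31) or 100 µM replicate 2 (-0.34).

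Of the other steps of ceramide synthesis, 3 of 7 listed genes were tested and FA2H, which hydroxylates fatty acids for sphingolipids, was called. Of all genes, 6.31% were lower at 50 µM than in controls and 2.25% higher at 100 µM than at 50 µM. FA2H was at 12.8 ± 2.31 TPM (SD, n = 3) in controls, 7.10 ± 0.61 at 50 µM and 13.6 ± 2.44 at 100 µM. It was lower at 50 µM than in controls (log2 fold change -0.79 ± 0.17, adjusted p = 0.0215) and higher at 100 µM than at 50 µM (0.96 ± 0.17, adjusted p = 0.0193). The first call was lost without control replicate 2 or 3 or any 50 µM library (-0.86 to -0.65), and the second without any 50 µM library or 100 µM replicate 1 or 2 (0.88 to 1.03).

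Among 10 tested genes of glycosphingolipid synthesis, 1 was higher and 1 lower at 50 µM (5.28% and 6.31% of all genes). At 100 µM 1 was higher (10.7% of all genes). ST3GAL5, the sialyltransferase that makes ganglioside GM3, stood at 104.4, 68.8 and 64.4 TPM in controls, 117, 118.3 and 111.9 at 50 µM and 82.5, 78.6 and 90.7 at 100 µM. Its control replicate 1 lay above all 100 µM libraries, and the call at 50 µM (0.61 ± 0.16, adjusted p = 0.0415) was lost without control replicate 2 or 3, any 50 µM library, or 100 µM replicate 1 or 2 (0.50 to 0.62). B4GALT6, a lactosylceramide synthase, was lower at 50 µM (-0.50 ± 0.13, adjusted p = 0.0396), a call lost without any 1 of the controls, any 50 µM library or 100 µM replicate 2 (-0.59 to -0.41). A4GALT, which makes globotriaosylceramide, was higher at 100 µM, at 18.9 ± 2.35 TPM against 13.9 ± 1.28 in controls (0.48 ± 0.11, adjusted p = 0.0143). That call was lost without control replicate 2 (0.44) or 3 (0.51).

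Of 18 tested genes that release or break down sphingolipids, GM2A, the activator protein for ganglioside GM2 breakdown, was the 1 called at 50 µM (6.31% of all genes were lower). It was lower, at 20.6 ± 1.22 TPM against 31.3 ± 2.61 (SD, n = 3) in controls (-0.54 ± 0.09, adjusted p = 0.0118), a call lost without control replicate 2 or 3 or any 50 µM library (-0.57 to -0.48). At 100 µM 10.7% of all genes were higher and 10.3% lower. PSAP, the precursor of the saposins, was higher there (0.42 ± 0.09, adjusted p = 0.0125), with 2311, 2245 and 1706 TPM in replicates 1 to 3 against 1608 to 1635 in controls. GLB1, the lysosomal beta-galactosidase, was also higher (0.33 ± 0.08, adjusted p = 0.0205). In TPM 100 µM replicate 3 lay within the controls for GLB1, at 104.3 against 100.5 to 104.8, and was the treated library nearest to them for PSAP. ASAH2, a neutral ceramidase, was lower (-0.71 ± 0.16, adjusted p = 0.0138), at 8.08 ± 1.83 TPM against 13.8 ± 2.29; its near-identical copy ASAH2B could share its reads, so this value is uncertain. These calls were lost without control replicate 2 (PSAP 0.44, GLB1 0.32, ASAH2 -0.56), and GLB1 also without control replicate 3 (0.36) or 100 µM replicate 1 (0.31) or 2 (0.28). The calls of PSAP, GLB1 and ASAH2 were also lost in the fit of only the groups compared. By limma on log2(TPM + 0.5) PSAP (0.35, adjusted p = 0.0540) and GLB1 (0.26, adjusted p = 0.112) did not pass.

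**Figure D5:**
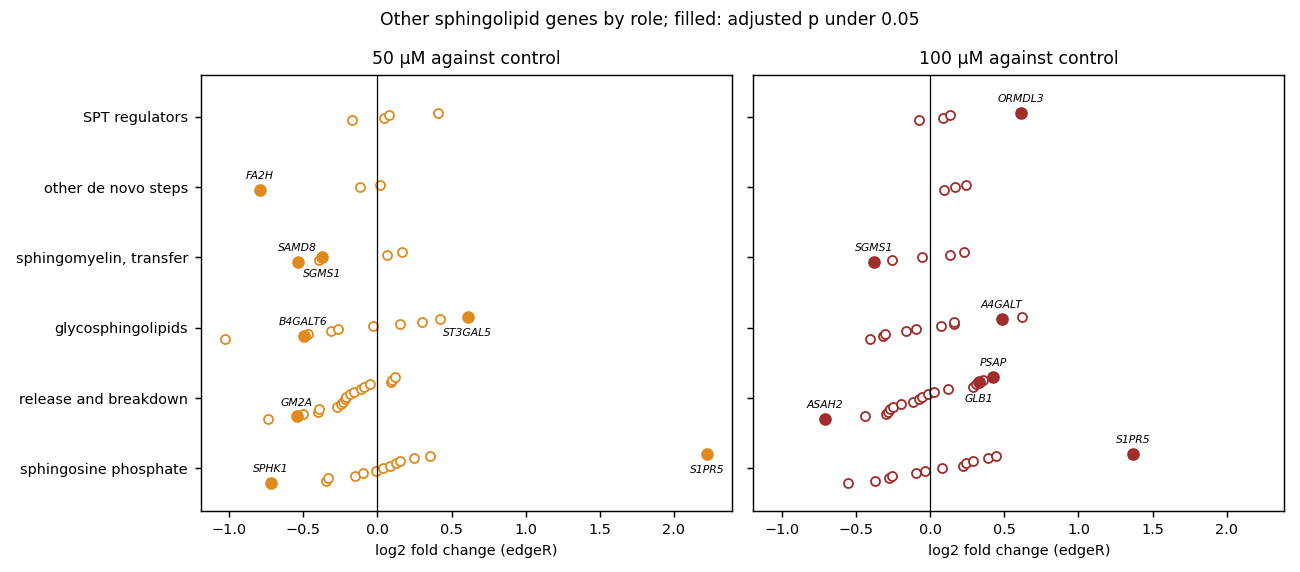
Log2 fold change (horizontal axis, edgeR) of the 53 tested genes of the wider sphingolipid list by role, for 50 µM against control (left, orange) and 100 µM against control (right, red); filled and named points passed an adjusted p of 0.05, and the vertical spread within a role has no meaning. At 50 µM 2 points are filled above 0 and 6 below, and at 100 µM 5 above and 2 below.

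Of 13 tested genes around sphingosine 1-phosphate, 1 was higher and 1 lower at 50 µM (5.28% and 6.31% of all genes). At 100 µM 1 was higher (10.7%), and between the concentrations 1 was higher and 1 lower (2.25% and 1.89%). SPHK1, the kinase that makes sphingosine 1-phosphate, was lower at 50 µM, at 71.0 ± 4.33 TPM against 120.8 ± 25.0 (SD, n = 3) in controls (-0.72 ± 0.19, adjusted p = 0.0376). Leaving out control replicate 2 or 3, any 50 µM library or 100 µM replicate 1 ended this call (-0.78 to -0.60). S1PR5, a receptor for sphingosine 1-phosphate, was called higher at 50 µM (2.23 ± 0.39, adjusted p = 0.0120) and at 100 µM (1.37 ± 0.41, adjusted p = 0.0433); it fell under the level set for naming genes and is named after its values were seen. Its level was very low, at 0.193 ± 0.11 TPM in controls, 0.88 ± 0.03 at 50 µM and 0.477 ± 0.08 at 100 µM. The S1PR5 call at 50 µM was lost without control replicate 2 or 3 or any 50 µM library (1.93 to 2.25), and that at 100 µM without any 1 library other than control replicate 1 (1.08 to 1.52). Between the concentrations ALDH3A2, the fatty aldehyde dehydrogenase that takes up the product of SGPL1, was lower at 100 µM (-0.41 ± 0.09, adjusted p = 0.0443) and PLPP3, a lipid phosphate phosphatase, higher (0.37 ± 0.08, adjusted p = 0.0442). Both calls were lost without control replicate 2 or 3, any 50 µM library, or 100 µM replicate 1 or 2 (-0.42 to -0.35 for ALDH3A2 and 0.34 to 0.40 for PLPP3).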

How the data were processed

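Messenger RNA of 9 HCCLM3 libraries was bound to oligo(dT) beads, and libraries were treated with duplex-specific nuclease, per the labels' protocols, whose text describes tissue. The authors deposited estimated counts, TPM and FPKM for each library. They also deposited comparisons of their own as log2 values, each with a p-value and a q-value from DESeq2 per the file headers. The submitters' processing notes name RSEM 1.2.12, Bowtie2 2.2.5, HISAT2 2.0.4 and the build GRCh38.p13, without roles. A further 9 per-sample columns were not used here.

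Estimated counts were rounded. Of 17492 genes, edgeR's filterByExpr (minimum count 10, total 15, share 0.7) kept 12832 and removed 0.0421% of counts. After TMM scaling, 1 fit over all 9 libraries with a term per group was tested by edgeR 4.0.16 (quasi-likelihood, robust, two-sided; with limma 3.58.1 in R 4.3.3). P-values were adjusted by Benjamini and Hochberg over all 12832 genes, and genes under 0.05 were called. SEs were derived from each estimate and its F statistic (estimate over root F). Levels and shares use the deposited TPM, and implied transcript length the deposited counts, FPKM and library totals. The fitting script was tested on simulated data.

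The 17 alternatives were: leaving out each library, leaving out both that stood apart, RLE size factors, no filter, a replicate block, DESeq2 1.42.0, fits of the 2 groups compared, and limma on log2(TPM + 0.5) and log2(TPM + 0.1). The members and lists were chosen with earlier results of these data known. Named were all members, the ORMDL genes, called genes of the wider list with a mean of at least 5 CPM (at most 4 per role and comparison), and the 5 genes most correlated with SPTSSB. Promoter sequences came from RefSeq, and exons and overlaps from GENCODE v29.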

Additional observations from a re-analysis of the deposited data

How the results depend on the processing

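Leaving out 1 library at a time, the number of genes other than SPTSSB called ran from 0 to 3 higher and 0 to 1 lower at 50 µM, 1 to 3 and 0 to 1 at 100 µM, and 0 to 3 and 0 to 1 between the concentrations. For the wider list the ranges were 0 to 6 higher and 0 to 15 lower, 0 to 10 and 0 to 5, and 0 to 15 and 0 to 4. Without both libraries that stood apart, the 9 genes gave 4 higher and 2 lower, 4 and 1, and 3 and 1, and the wider list 9 and 25, 15 and 14, and 23 and 7; the shares of all genes were then 28.5% and 28.9%, 24.2% and 24.4%, and 24.6% and 22.7%. UGCG at 100 µM against 50 µM reversed from 0.10 to -0.209 without 100 µM replicate 3 and to -0.199 without both, and ran from -0.209 to 0.245 over single libraries left out; the cause was not tested. With the fit of only the groups compared, the 9 genes gave 3 higher and 1 lower at 50 µM. The wider list gave 14 lower at 50 µM, 0 and 0 at 100 µM and 0 lower between the concentrations. Of all genes, those fits called 15.8% higher and 18.0% lower at 50 µM and 4.63% and 3.45% at 100 µM. Between the concentrations the shares were 1.42% and 0.559%. DESeq2 gave 3 of the 9 genes higher at 100 µM and 1 between the concentrations. Of the wider list it gave 4 higher at 50 µM and 8 higher and 5 lower at 100 µM. DESeq2 called 9.41% of all genes higher and 10.6% lower at 50 µM. Its shares were 13.4% and 12.9% at 100 µM, and 5.53% and 5.24% between the concentrations. With limma on log2(TPM + 0.5) or log2(TPM + 0.1), 0 of the 9 genes and 1 of the wider list were higher at 50 µM. At 100 µM 3 of the list were higher and 4 lower. The log2(TPM + 0.5) fit called 3.52% of all genes higher and 5.56% lower at 50 µM, and 7.65% and 12.6% at 100 µM. The log2(TPM + 0.1) fit called 3.49% and 5.40%, and 7.64% and 12.5%. Without the filter 0 of the list were lower between the concentrations (0.935% of all genes). RLE size factors moved no count by over 1.5 times.

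With the replicate block 0 of the 9 genes were higher at 50 µM (SPTSSA 0.386, adjusted p = 0.0530). The wider list gave 1 higher and 2 lower at 50 µM, 3 higher at 100 µM, and 0 higher and 0 lower between the concentrations. The block fit called 1.55% of all genes higher and 1.78% lower at 50 µM. Its shares were 6.96% and 6.07% at 100 µM, and 0.631% and 0.218% between the concentrations. Correlations of same-numbered libraries' deviations from their group means ran from -0.464 to 0.276, and control replicate 1 correlated best with 100 µM replicate 3 (0.533). Deviations from a mean of 3 libraries are not independent, and the 2 libraries that stood apart weigh on these values. They therefore cannot tell whether the numbers pair the libraries. Shares from deposited FPKM and TPM were the same apart from rounding. The 2 scales differ by a constant factor within a library, so this is no check of the shares. Precision is limited by 3 libraries per group, with 1 control and 1 library at 100 µM standing apart, and for SPTLC3 by counts under 24 per library.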
